A study of Mus musculus with 26 samples.

Results

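The comparison described here set mouse Group3 medulloblastomas given pemetrexed and gemcitabine together against the same kind of tumor given gemcitabine alone, and so bears on what pemetrexed adds in tumors that already receive gemcitabine. Its members are 3 arrays of tumors labelled with both drugs and 3 arrays of tumors labelled with gemcitabine, chosen by these labels and by the letters mmm in their titles, out of 26 arrays in the series. Every tumor came from the C57BL/6 strain, lacked Trp53 and Cdkn2c (Trp53-/-, Cdkn2c-/-) and carried Myc, so both deletions and Myc are common to all groups. The labels give no dose, route, schedule, time of collection or host of the tumors. Beside these groups stand 2 arrays of pemetrexed-treated tumors and 2 of untreated tumors with the same letters and genotype. The remaining 16 arrays, of neurospheres and other tumors, entered the fit only to estimate the spread between arrays. Arrays are numbered within a group in the order of deposit. The labels do not say whether the arrays of a group came from separate animals, so p values measure only the spread between arrays, which may be technical.

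Pemetrexed is an antifolate. It enters cells through the reduced folate carrier Slc19a1, is lengthened with glutamates by Fpgs, and inhibits thymidylate synthase (Tyms), dihydrofolate reductase and the purine enzyme Gart. Gemcitabine is a cytidine analog that enters through nucleoside transporters such as Slc29a1, is phosphorylated first by deoxycytidine kinase (Dck), and blocks DNA synthesis by incorporation into DNA and by inhibition of ribonucleotide reductase (Rrm1 with Rrm2 or Rrm2b). Group 3 is a subgroup of medulloblastoma, a tumor of the cerebellum, and is known for high MYC.

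With all arrays weighted equally, no single gene passed the test between tumors given both drugs and tumors given gemcitabine. Of 17097 genes, each represented by its brightest probe set, 0 were higher (0%) and 0 were lower (0%) in tumors given both drugs than in tumors given gemcitabine at an adjusted p of 0.05 in limma (Benjamini-Hochberg). The lowest adjusted p was 0.0769. The count depended on how single arrays were treated: it was 32 without gemcitabine array 3, 15 without array 2 of both drugs, and 246 with arrays weighted by their estimated quality. Among the 6 arrays, gemcitabine array 3 had the lowest weight (0.276) and gemcitabine array 1 the highest (5.07). The weighted gemcitabine mean thus rested mostly on array 1. At an unadjusted p of 0.05, 381 genes were higher (2.23%) and 517 were lower (3.02%), 5.25% of all genes tested together. All values are log2 intensities as deposited, and differences are log2, both drugs minus gemcitabine. The median difference over all genes was -0.03, and the largest were 3.84 (Pdlim3) and -3.15 (Foxa1). In 303 genes the difference was at least 1, that is 2-fold, in either direction. The 95% interval of a difference had a median half-width of 0.47, and of 0.54 in the 8795 genes with a group mean of at least 6. These intervals are not adjusted for the number of genes, so a typical gene needed a larger difference than this to pass. None of the 303 genes passed.

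**Figure D1:**
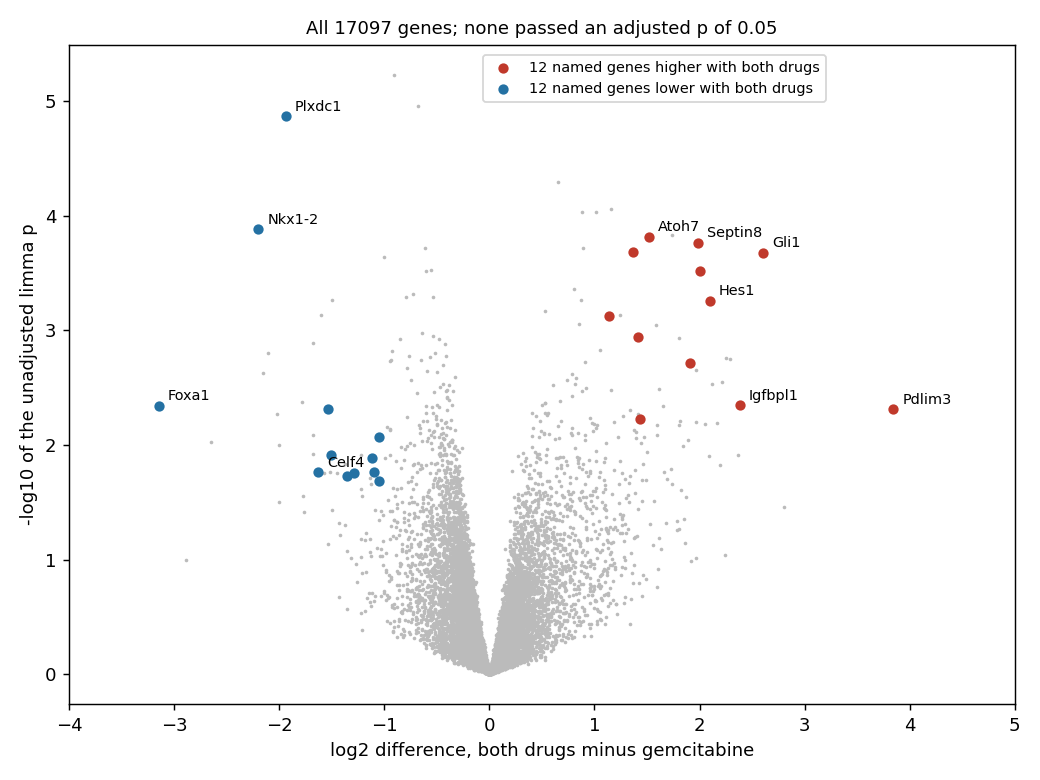
Each point is 1 of 17097 genes, with the log2 difference (tumors given both drugs minus tumors given gemcitabine) on the x axis and -log10 of the unadjusted limma p on the y axis; larger points are the 12 named genes in each direction. Pdlim3 at 3.84 and Foxa1 at -3.15 lie farthest to each side, and no gene reached an adjusted p of 0.05.

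The arrays differed as much inside the groups as between them. The SD over genes of the difference between a pair of arrays was 0.497, 0.569 and 0.575 for the 3 pairs of arrays with both drugs. For the 3 pairs of gemcitabine arrays it was 0.395, 0.747 and 0.953. Across the groups the 9 pairs ran from 0.429 to 0.863, with a median of 0.553. Gemcitabine array 3 stood apart: it took part in both of the larger values of its own group and in the largest value across groups, against array 1 with both drugs.

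**Figure D2:**
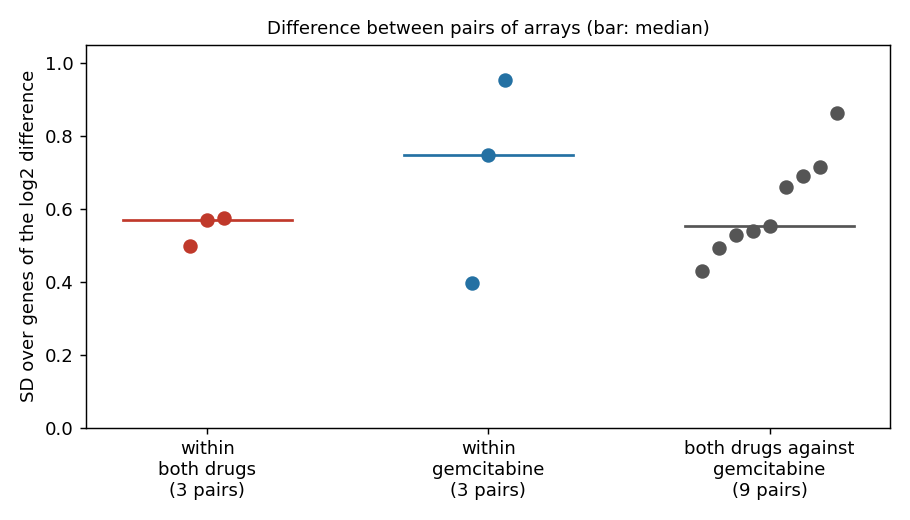
Each point is a pair of arrays, and the y axis is the SD over genes of their log2 difference; bars are medians. The pairs within both drugs lie between 0.497 and 0.575, the pairs within gemcitabine between 0.395 and 0.953, and the pairs across groups between 0.429 and 0.863.

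Markers of normal brain cells also varied widely within the groups. Their part in the distances was not tested. The mean log2 level of 13 oligodendrocyte markers was 5.98, 8.04 and 7.27 on the arrays with both drugs, against 7.20, 6.38 and 8.81 on the gemcitabine arrays. The 12 astrocyte markers averaged 7.33, 9.06 and 8.69 with both drugs and 8.26, 6.72 and 9.75 with gemcitabine. Markers of mature neurons other than granule neurons (15 genes) averaged 5.46, 6.97 and 6.66 with both drugs and 5.97, 4.77 and 8.24 with gemcitabine. Array 1 with both drugs and gemcitabine array 2 were the low arrays of their groups on all 3 lists, and gemcitabine array 3 was the highest of the 6. Mbp, the major protein of myelin, was at 8.72, 11.96 and 10.56 with both drugs and at 10.38, 9.26 and 12.44 with gemcitabine. Gfap, the astrocyte filament, was also highest on gemcitabine array 3, and was at 5.89, 9.38 and 7.59 with both drugs and at 7.95, 4.95 and 10.09 with gemcitabine. Not every marker did this: Olig2 was lowest, among the gemcitabine arrays, on array 3.

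Between the groups all of these lists overlapped. The median difference was -0.30 for oligodendrocyte markers, 0.01 for astrocyte markers and 0.01 for the neurons, against -0.03 over all genes, and 0 of their members passed. Leaving out 1 array moved these medians to both sides of 0, from -0.995 (without gemcitabine array 2) to 0.592 (without gemcitabine array 3) for oligodendrocyte markers, from -0.653 to 0.838 for astrocyte markers and from -0.725 to 0.819 for the neurons, with the same arrays at the ends. In bulk tissue, fewer cells of a type and less RNA per cell cannot be told apart. With their mean level as a covariate among the 10 tumor arrays, an alternative chosen after seeing the data, the number of genes called was also 0.

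Replication and division genes ran opposite to the brain-cell markers across arrays and did not separate the groups. The 42 genes of the DNA replication machinery averaged 8.98, 8.64 and 8.68 with both drugs, against 8.84, 8.98 and 8.30 with gemcitabine, and 29 mitosis genes averaged 9.38, 8.90 and 8.87 with both drugs, against 9.23, 9.39 and 8.80 with gemcitabine. Their median differences were 0.07 and -0.12, and 0 of these genes passed. Mki67, a nuclear protein of cycling cells, was at 10.90, 10.55 and 10.66 with both drugs and at 10.88, 10.80 and 10.06 with gemcitabine. Pcna, the sliding clamp of DNA polymerase, stayed between 12.51 and 12.68 with both drugs and between 12.44 and 12.59 with gemcitabine. DNA repair and checkpoint genes (24 measured) had a median difference of -0.02, and 22 p53 target genes one of 0.003, in tumors that lack Trp53. Cdkn1a, the cell cycle inhibitor p21, was at 8.41, 9.34 and 6.98 with both drugs and at 8.46, 8.05 and 8.70 with gemcitabine, with the low and the high value of the 6 both in tumors given both drugs.

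**Figure D3:**
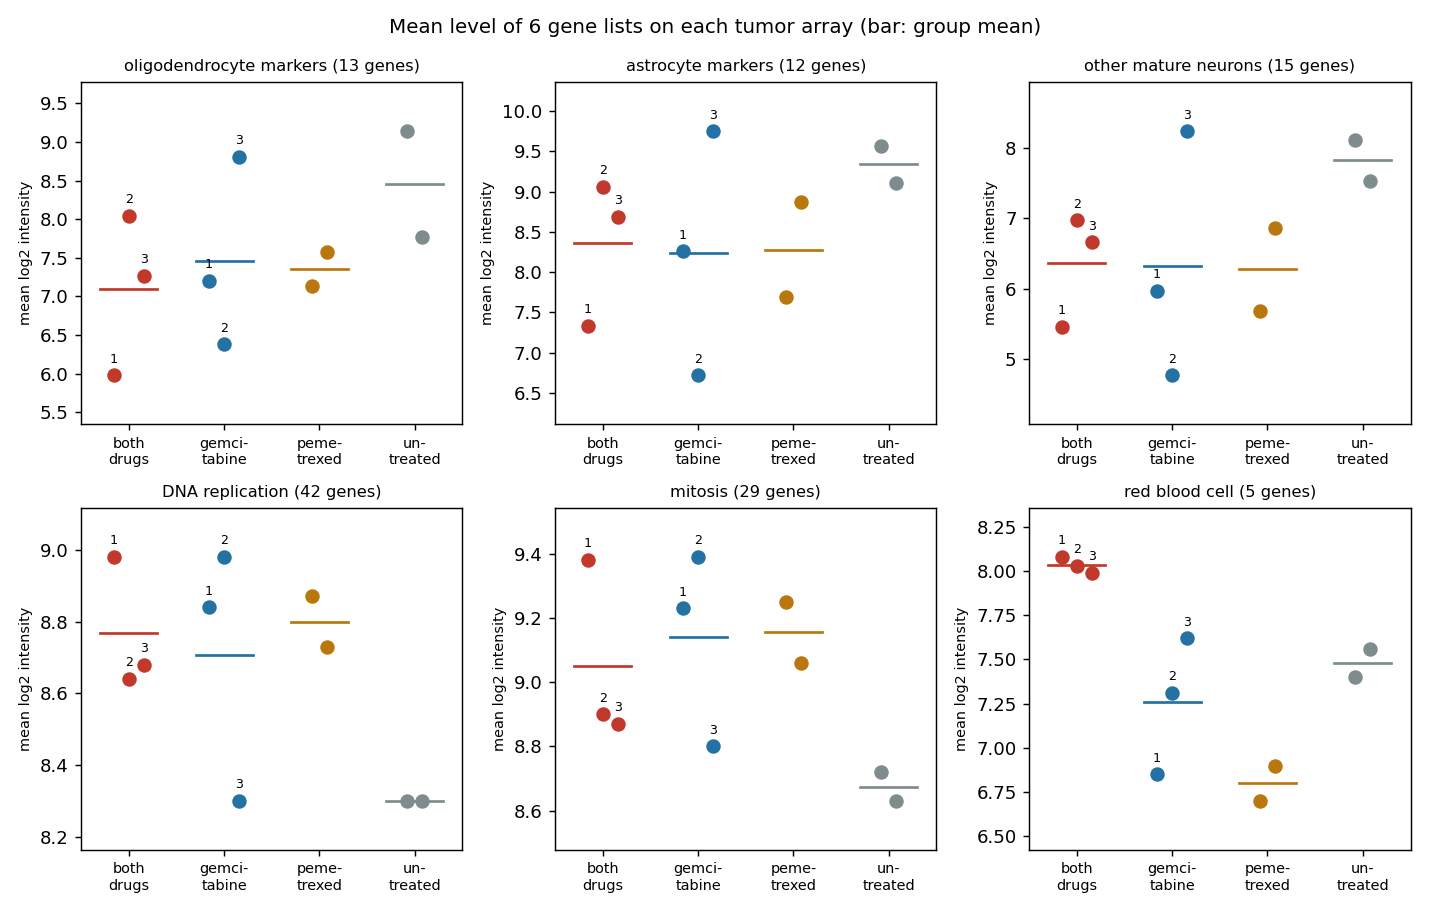
Mean log2 intensity of the measured genes of 6 lists on each tumor array, from left to right tumors given both drugs (3 arrays), gemcitabine (3), pemetrexed (2) and untreated tumors (2); bars are group means and digits number the arrays of the groups compared. The brain-cell lists spread widely within both groups, with gemcitabine array 3 high and gemcitabine array 2 low, the replication and mitosis lists run the other way, and only on the red blood cell list do all arrays with both drugs lie above all gemcitabine arrays.

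The genes that handle the drugs did not differ between the groups beyond their spread. Of 12 antifolate genes 10 were measured and of 20 gemcitabine genes 19 were measured. Among these 29 genes, 14 were higher and 15 lower with both drugs, 0 passed, and the unadjusted p ran from 0.0924 to 0.997. Median differences were -0.01 for the antifolate list and 0.06 for the gemcitabine list. The 95% intervals of 23 genes lay inside 2-fold in both directions, and those of the other 6 (Folr1, Nt5e, Slc29a1, Tk1, Dck and Slc29a2) reached it.

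Among targets of pemetrexed, Tyms was at 9.80, 9.48 and 9.24 with both drugs, against 9.49, 9.61 and 9.0 with gemcitabine, a difference of 0.14 with a 95% interval from -0.56 to 0.84. Gart was at 10.11, 9.34 and 9.36 with both drugs, against 9.42, 9.58 and 8.73 with gemcitabine, a difference of 0.36 (interval -0.19 to 0.91). Both genes had their highest value on array 1 with both drugs and their lowest on gemcitabine array 3, and the other arrays overlapped. The carrier Slc19a1 differed by -0.01 (interval -0.44 to 0.42), Fpgs by -0.06 (interval -0.55 to 0.43), and Ggh, which removes the glutamates, by 0.02 (interval -0.41 to 0.44). For these 3 genes the interval does not reach 2-fold in either direction.

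For gemcitabine, the transporter Slc29a1 was at 10.11, 9.45 and 9.62 with both drugs and at 9.34, 9.44 and 8.98 with gemcitabine with no overlap, though the closest arrays of the groups were nearly equal. Its difference was 0.47 (interval -0.09 to 1.03). Slc29a2, a related transporter, was at 5.63, 5.62 and 5.52 with both drugs and at 6.09, 5.96 and 5.67 with gemcitabine, also without overlap and in the other direction (-0.32, interval -1.05 to 0.42). Over all genes, arrays did not overlap in 4.42% with both drugs higher and in 6.57% with both drugs lower, so 1 of 29 genes in each direction is below those shares. Dck was at 8.55, 8.55 and 8.59 with both drugs, against 8.86, 8.41 and 7.27 with gemcitabine, and its difference of 0.38 turned to -0.07 without gemcitabine array 3. Rrm1 differed by 0.10 (interval -0.44 to 0.64), Rrm2 by 0.21 (interval -0.52 to 0.94) and Rrm2b by -0.37 (interval -0.86 to 0.13). The widest interval, -2.56 to 0.56 around -1.0, belonged to Nt5e, the surface 5'-nucleotidase, which was at 9.10, 7.96 and 5.96 with both drugs and at 8.83, 9.25 and 7.93 with gemcitabine.

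**Figure D4:**
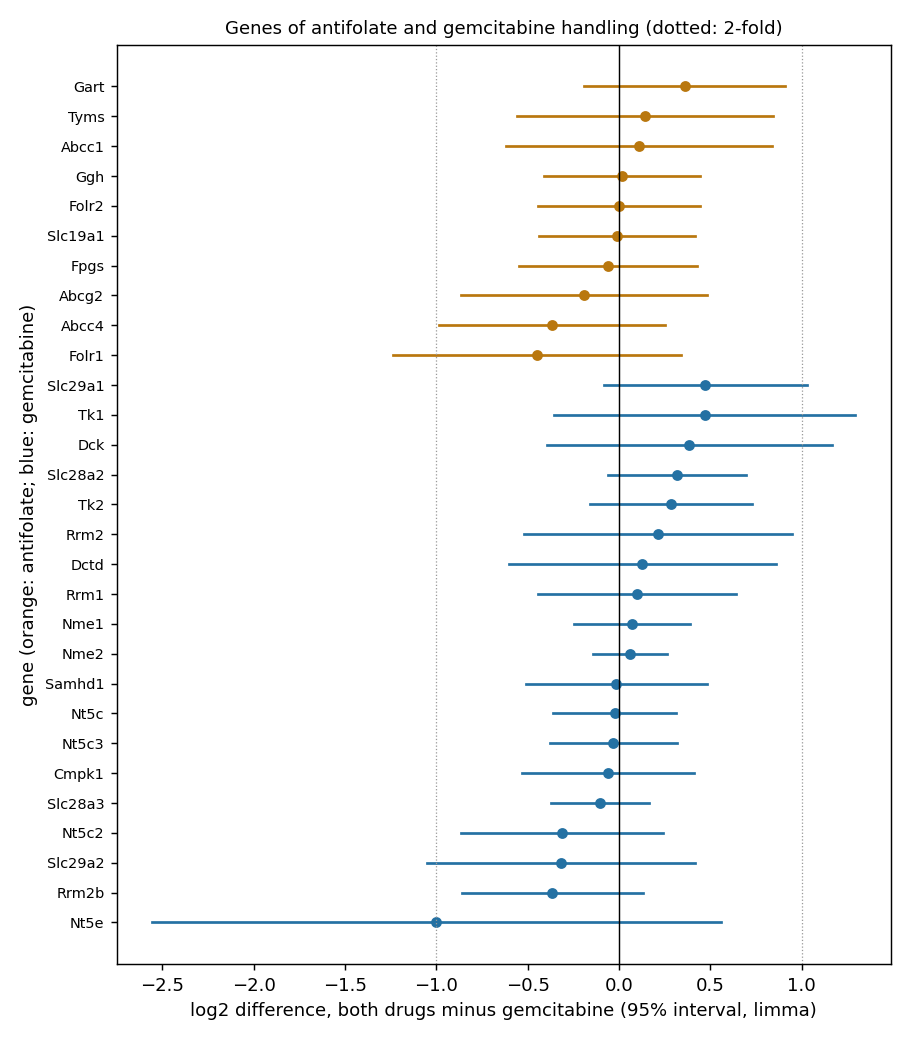
Log2 difference (tumors given both drugs minus tumors given gemcitabine) with its 95% limma interval for 10 antifolate genes (orange) and 19 gemcitabine genes (blue); dotted lines mark 2-fold. Every interval includes 0, 23 lie within 2-fold, and Nt5e has the widest.

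None of the model genes passed. Myc was at 8.68, 9.13 and 8.35 with both drugs and at 8.94, 8.84 and 7.79 with gemcitabine (difference 0.19, SE 0.50, adjusted p = 1.0). Its 95% interval, -0.84 to 1.23, reached past 2-fold upward, and the difference was -0.17 without gemcitabine array 3. The brightest probe set of Mycn, its paralog, was near the top of the scale on every array, at 15.35, 15.18 and 15.05 with both drugs and at 15.24, 15.23 and 15.13 with gemcitabine. Its other 2 probe sets averaged 5.28 and 4.02 with both drugs and 5.16 and 3.80 with gemcitabine, so its probe sets disagree on the level. Cdkn2c, the deleted CDK inhibitor p18, read 4.08, 4.80 and 4.05 with both drugs and 4.27, 4.05 and 4.27 with gemcitabine; the labels do not say which part of the gene is missing, so a signal here checks nothing. Of the Group 3 and photoreceptor list, 16 genes were measured with a median difference of -0.18, and 11 of them averaged under 5. In 2 of the 16 all arrays with both drugs lay below all gemcitabine arrays (6.57% over all genes), and in 0 above (4.42%). An unadjusted limma p under 0.05 was reached by 2 with both drugs lower (3.02% over all genes) and by 0 higher (2.23%). Otx2, a defining Group 3 transcription factor, read 4.37, 4.60 and 3.39 with both drugs and 3.94, 4.41 and 6.21 with gemcitabine, low on the scale except on gemcitabine array 3. Npr3, the natriuretic peptide clearance receptor and a Group 3 marker, was at 6.65, 7.29 and 5.0 with both drugs, against 8.93, 9.11 and 6.89 with gemcitabine (difference -2.0, SE 0.70, unadjusted p = 0.00993). Eomes of the same list went the other way, with a difference of 0.76.

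Because no gene passed, the genes that stood farthest apart are described as values. They are the 12 in each direction with the smallest unadjusted p among genes whose arrays did not overlap, that differed by at least 1 and that averaged at least 6 in the higher group. The filter was met by 36 genes with both drugs higher and 19 with both drugs lower. Without the limit on level and p, 79 genes (0.462% of those tested) were at least 2-fold higher with no overlap and 29 (0.17%) were at least 2-fold lower. Non-overlap was part of the choice, so nothing is read from it.

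On the higher side, Pdlim3, an actin-associated protein with PDZ and LIM domains, was at 10.77, 8.51 and 13.87 with both drugs and at 7.24, 7.17 and 7.20 with gemcitabine. The gemcitabine arrays, and the pemetrexed and untreated arrays between 7.39 and 7.80, lay close together, while the arrays with both drugs spread over more than 5 log2 units. The difference was 3.84 (SE 1.21, adjusted p = 0.807). Gli1, the transcription factor that is both effector and target of Sonic hedgehog (SHH) signalling, was at 6.63, 4.89 and 6.87 with both drugs, against 3.60, 3.38 and 3.63 with gemcitabine, a difference of 2.60 (SE 0.57, adjusted p = 0.225). Both genes were lowest, within the tumors given both drugs, on array 2.

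Other hedgehog targets were read beside Gli1. Ptch1, the hedgehog receptor and a target of the pathway, was at 10.60, 9.60 and 10.81 with both drugs, against 9.09, 8.95 and 9.09 with gemcitabine (1.29, SE 0.75, adjusted p = 1.0). Hhip, the hedgehog-binding inhibitor that the pathway induces, was at 6.32, 4.46 and 6.10 with both drugs, against 4.04, 3.88 and 3.88 with gemcitabine (1.69, SE 0.66, adjusted p = 0.879). Ccnd1, cyclin D1, was at 12.26, 12.31 and 12.51 with both drugs, against 12.06, 11.94 and 11.87 with gemcitabine (0.41, SE 0.55, adjusted p = 1.0). Hhip and Ccnd1 were picked after their values were seen. For Gli1, Ptch1 and Hhip, arrays 1 and 3 with both drugs were the highest of the 6, and array 2 lay nearer to the gemcitabine arrays. Of the 16 measured genes of the SHH and granule progenitor list, these 4 had all arrays with both drugs above all gemcitabine arrays (4.42% over all genes) and 0 the reverse (6.57%). An unadjusted p under 0.05 with both drugs higher was reached by 2 of the 16 (2.23% over all genes), and 0 passed. The list mean was 8.16, 7.78 and 8.30 with both drugs, against 7.66, 7.68 and 7.57 with gemcitabine, while the median difference of its members was 0.04. Gli1 was chosen for its non-overlap and is part of both the count and the list mean, as are Hhip and Ccnd1. Nothing is therefore read from the non-overlap of the count or of the list mean. Gli2 of the same list differed by 0.82. Smo, the pathway's signal transducer, differed by 0.07, Sufu, its inhibitor, by 0.01, and Atoh1, the granule progenitor factor, by -0.17 at levels of 3.02 to 3.45 on the 6 arrays.

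Hes1, a repressor downstream of Notch, was at 7.60, 6.36 and 7.61 with both drugs, against 4.89, 4.28 and 6.10 with gemcitabine (2.10, SE 0.51, adjusted p = 0.351). Atoh7, a basic helix-loop-helix factor known for retinal ganglion cell fate, was at 6.69, 6.56 and 7.88 with both drugs, against 5.57, 5.45 and 5.56 with gemcitabine (1.52, SE 0.32, adjusted p = 0.225). Untreated tumors had Atoh7 at 7.69 and 6.47, near the values with both drugs (6.47 lies just below their lowest), and Hes1 at 5.06 and 4.93, in the range of the tumors given gemcitabine. The neural stem cell list, which holds Hes1, had a median difference of 0.09 over 21 measured genes, 1 of them at an unadjusted p under 0.05. Igfbpl1, an insulin-like growth factor binding protein-like gene, differed by 2.38 and was at 6.93 and 7.52 in untreated tumors, above every gemcitabine array.

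Of the other higher genes, Pdzrn3, a ubiquitin ligase, differed by 2.01, Septin8, a cytoskeletal GTPase, by 1.98, and the somatostatin receptor Sstr2 by 1.91. Lasp1, an actin-binding protein, Abtb2, Fgl2 and Arhgap18 differed by 1.43, 1.42, 1.37 and 1.14 in that order. In all 12 genes array 3 was the highest of the arrays with both drugs, and in 9 of them array 2 was the lowest. In 11 of the 12 array 2 was the lowest of the gemcitabine arrays. In 5 of the 12 every untreated array lay below the lowest array with both drugs.

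On the lower side, Foxa1, a pioneer transcription factor, was at 3.18, 3.94 and 2.94 with both drugs, against 7.01, 7.56 and 4.93 with gemcitabine (-3.15, SE 0.98, adjusted p = 0.807). It was at 6.57 and 5.39 in pemetrexed-treated tumors and at 4.37 and 3.41 in untreated tumors, so that tumors given both drugs were at the untreated end and those given either drug alone above it. Nkx1-2, a homeobox factor, was at 4.19, 4.15 and 3.76 with both drugs, against 7.15, 7.21 and 4.34 with gemcitabine (-2.20, SE 0.46, adjusted p = 0.225). Plxdc1, a transmembrane protein first described in tumor endothelium, was at 4.15, 4.49 and 5.06 with both drugs, against 6.90, 7.33 and 5.30 with gemcitabine (-1.94, SE 0.34, adjusted p = 0.0769). In these 3 genes gemcitabine arrays 1 and 2 were high and gemcitabine array 3 was near the arrays with both drugs. Plxdc1 was at 4.46 and 4.76 in untreated tumors and Nkx1-2 at 4.43 and 4.59, close to the tumors given both drugs.

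Celf4, a neuronal RNA-binding protein, was at 7.62, 9.35 and 8.72 with both drugs, against 10.10, 10.10 and 10.37 with gemcitabine (-1.63, SE 0.63, adjusted p = 0.853). Its 3 probe sets all gave arrays without overlap, but they read the same arrays and are not separate support. In Atoh7, Septin8, Plxdc1 and Fancb the dimmer probe set overlapped, while in Igfbpl1 and Fgl2 it did not. Nexmif, a regulator of neurite extension, differed by -1.29, and Grm4, the metabotropic glutamate receptor of granule cells, by -1.12. The lists of granule neuron differentiation and of other mature neurons had median differences of 0.02 and 0.01. The rest were Map3k5, the stress kinase ASK1 (-1.54), the orphan nuclear receptor Esrrg (-1.51), the sorting nexin Snx7 (-1.35), the inositol trisphosphate receptor Itpr2 (-1.10), the phospholipid flippase Atp8a1 (-1.05) and Fancb, a subunit of the Fanconi anaemia DNA crosslink repair complex (-1.05). Fancb was at 7.19, 7.17 and 6.53 with both drugs and at 7.89, 8.15 and 7.99 with gemcitabine, with untreated tumors at 6.74 and 6.69 inside the range of the tumors given both drugs. Of the 24 genes, 16 had several probe sets, and in 3 (Atp8a1, Esrrg and Lasp1) a dimmer probe set pointed the other way. Averaging the probe sets of a gene left the sign of all 24 but brought 9 down by over 1.5 times, among them Nkx1-2 to -0.89, Lasp1 to 0.46, Itpr2 to -0.41 and Esrrg to -0.72.

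**Figure D5:**
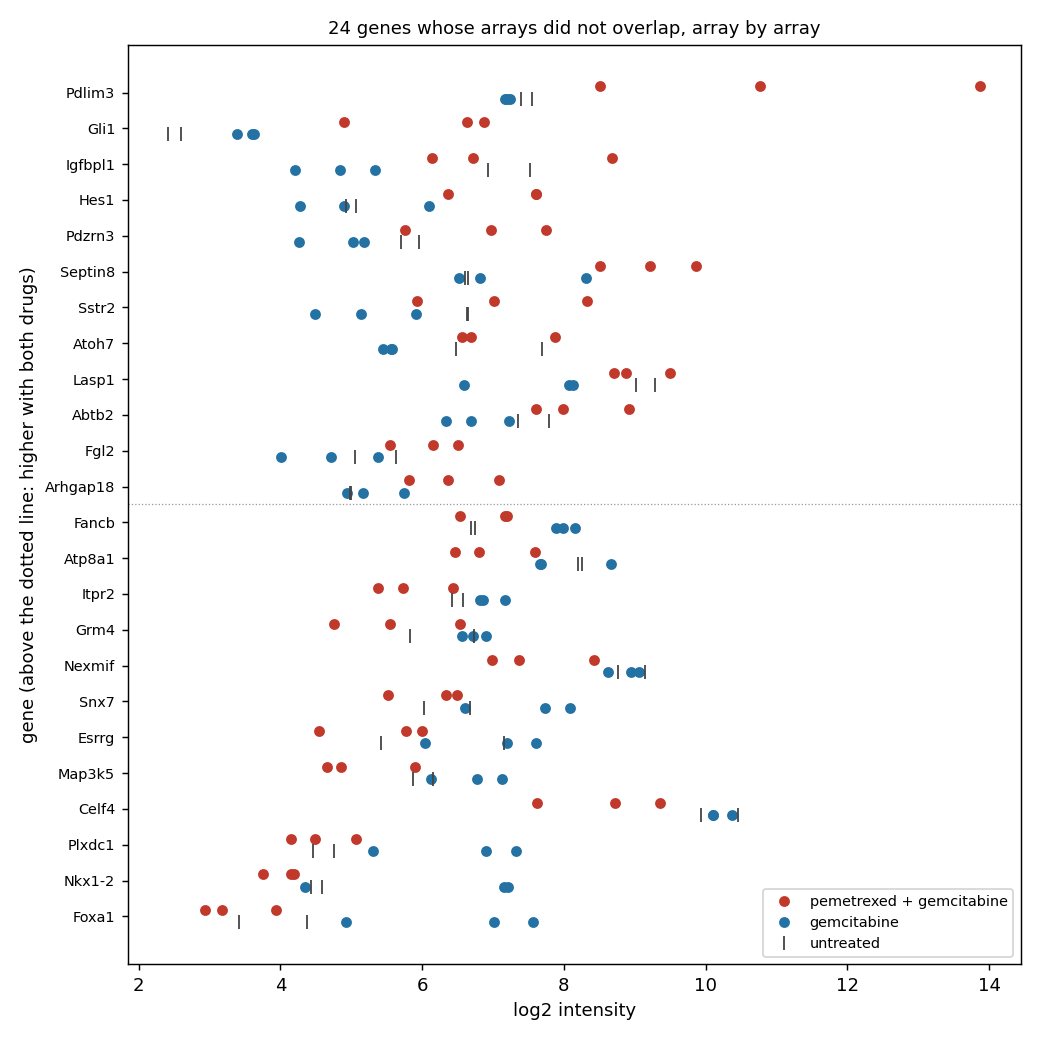
Log2 intensity of the 24 genes on each array, with tumors given both drugs in red, tumors given gemcitabine in blue and untreated tumors as black ticks; genes above the dotted line were higher with both drugs. The red points of Pdlim3 run from 8.51 to 13.87, and in Foxa1, Nkx1-2 and Plxdc1 gemcitabine array 3 (4.93, 4.34 and 5.30) is the blue point nearest to the red ones.

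Genes of blood and of antigen presentation had the highest list medians. Red blood cell genes (5 measured) had a median difference of 0.89, against -0.03 over all genes; 4 of the 5 had an unadjusted p under 0.05 with both drugs higher (2.23% over all genes) and 0 passed. The median was 0.51 without gemcitabine array 1. Hbb-b2, an adult beta globin, was at 12.95, 13.17 and 13.12 with both drugs, against 10.91, 11.61 and 12.59 with gemcitabine (1.38, SE 0.46, adjusted p = 0.807). Alas2, the erythroid enzyme of haem synthesis, was at 5.55, 5.98 and 5.39 with both drugs, against 4.21, 4.95 and 5.07 with gemcitabine (0.89, SE 0.19, adjusted p = 0.225). Untreated tumors had Hbb-b2 at 12.37 and 12.68, above gemcitabine arrays 1 and 2 and below every array with both drugs. Alas2 was picked after its values were seen. Globin genes are near-identical copies, so their probe sets may share signal, and how much blood the tissue held was not tested.

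Antigen presentation genes (14 measured) had a median of 0.58, with 4 higher at an unadjusted p under 0.05 (2.23% over all genes) and 0 passing. Leaving out 1 array moved the median to between 0.27 (without gemcitabine array 2) and 1.07 (without gemcitabine array 3). The MHC class II chain H2-Aa was at 9.54, 7.43 and 6.93 with both drugs, against 5.29, 5.52 and 7.20 with gemcitabine (1.96, SE 0.64). H2-Ab1 was at 9.67, 7.63 and 7.26 with both drugs, against 6.06, 5.97 and 7.11 with gemcitabine (1.81, SE 0.59), and H2-Eb1 differed by 1.84 (SE 0.65). Array 1 with both drugs was far above all other arrays in H2-Aa and H2-Ab1, and without it the differences of H2-Aa, H2-Ab1 and H2-Eb1 were 1.18, 1.07 and 0.86. Microglia and macrophage markers, the cells that carry MHC class II in brain, averaged 7.36, 7.83 and 6.6 with both drugs and 7.29, 6.78 and 7.76 with gemcitabine, with a median difference of -0.12. Their part in the class II values was not tested. All 15 lymphocyte markers measured were dim, under 5 in both groups.

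Immediate early genes had a median of 0.35, which was -0.02 without array 2 of both drugs: Fos was at 5.67, 8.44 and 5.61 with both drugs and at 4.85, 4.66 and 6.78 with gemcitabine, and Egr1 at 6.26, 10.26 and 7.06 with both drugs and at 6.74, 5.66 and 7.80 with gemcitabine. The interferon response list (22 measured) had a median of 0.31, but its mean level was highest on gemcitabine array 3, at 6.58. Hypoxia genes were high on array 1 with both drugs, where Car9, carbonic anhydrase 9, was at 9.01 against 5.63 and 5.46 on the other arrays with both drugs and 5.86, 5.33 and 5.32 with gemcitabine. Ttr, the choroid plexus transthyretin, was at 6.86, 9.17 and 4.12 with both drugs and at 7.33, 12.22 and 9.26 with gemcitabine. Of the BCL2 family of cell death regulators (13 measured), 2 survival genes had all arrays with both drugs above all gemcitabine arrays (4.42% over all genes): Bcl2 was at 7.09, 6.97 and 7.42 with both drugs, against 6.04, 5.79 and 6.84 with gemcitabine (0.94, SE 0.37, unadjusted p = 0.0185), and Mcl1 differed by 0.44 (SE 0.37). Bmf of the same list, which promotes cell death, was also higher with both drugs, by 0.77. The list median was 0.12.

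Of 15 fibroblast, pericyte and matrix genes, with a median difference of -0.28, 3 had all arrays with both drugs below all gemcitabine arrays (6.57% over all genes), namely the basement membrane collagens Col4a1 (-0.47, SE 0.91) and Col4a2 (-0.43, SE 0.68) and fibronectin Fn1 (-0.29, SE 0.80). Col3a1 of the same list was higher with both drugs by 1.06 (SE 1.06), carried by array 1. Of 17 endothelial markers, whose median difference of -0.02 was close to that of all genes, Esam (-0.60), Egfl7 (-0.57) and Kdr (-0.35) did likewise. None of the 6 had an unadjusted p under 0.05. Col4a2, Fn1 and Kdr were picked after their values were seen.

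Pemetrexed was also given without gemcitabine, and the 2 uses of the drug could be set side by side on arrays that are not shared. Pemetrexed-treated against untreated tumors gave 0 genes past the adjusted threshold (lowest adjusted p 0.0837) and 807 at an unadjusted p under 0.05 (4.72%; 2.43% higher and 2.29% lower). Over the 17097 genes the differences for pemetrexed with and without gemcitabine had the same sign in 49.4% and a Pearson correlation of 0.05, and over the 8795 brighter genes the same sign in 52.1%. Genes are not independent replicates, so these are descriptions. The mean of the brain-cell lists was 6.76 and 7.69 on the pemetrexed arrays, against 8.89 and 8.08 on the untreated arrays. Its part in the pemetrexed differences was not tested.

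The difference between both differences was tested directly in the same fit. No gene passed (0%, lowest adjusted p 0.594), and 849 genes had an unadjusted p under 0.05 (4.97%). The count past the adjusted threshold was 675 with array weights and 0 to 32 with 1 array left out (32 without gemcitabine array 3, 5 and 2 without each untreated array, 1 without pemetrexed array 1). Of the 849, 267 were more positive with gemcitabine present (1.56%) and 582 more negative (3.4%). Foxa1, Pdlim3 and Lasp1 were chosen for a large difference between both drugs and gemcitabine. That difference is part of this value, so a large value for them was partly built in. Foxa1 gave -5.24 (SE 1.55, adjusted p = 0.857), from -3.15 for pemetrexed added to gemcitabine and 2.09 for pemetrexed alone against untreated tumors. Pdlim3 gave 3.71 (SE 1.91, adjusted p = 0.985), from 3.84 and 0.13. Lasp1 gave 2.69 (SE 0.73, adjusted p = 0.857), from 1.43 and -1.26.

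Set against the 2 untreated tumors, tumors given both drugs had 9 genes that rose (0.0526%) and 4 that fell (0.0234%) at adjusted p values of 0.0446 to 0.0463, and 1350 genes (7.9%) had an unadjusted p under 0.05. How counts against untreated tumors depend on single arrays or on processing was not tested. Gemcitabine alone against untreated tumors gave 0 (lowest adjusted p 0.181), with 1472 genes at an unadjusted p under 0.05 (8.61%; 5.1% higher and 3.51% lower). These comparisons share the untreated arrays, and each shares its treated arrays with the comparison of both drugs against gemcitabine. The mean of the brain-cell lists was 8.89 and 8.08 on the untreated arrays, against 6.19, 7.94 and 7.47 with both drugs. With gemcitabine it was 7.06, 5.88 and 8.88. The part of brain-cell content in the differences from untreated tumors was not tested. Among the 9 genes that rose, the ectonucleotidase Entpd2 was 3.93 above untreated with both drugs and 1.68 above untreated with gemcitabine. Gli1 was 3.62 and 1.02 above untreated on the same scale, Septin8 2.57 and 0.59, Pald1 2.33 and 0.59, and Mybpc1, a myosin-binding protein, 1.93 and 0.43. Directly between both drugs and gemcitabine these 5 genes differed by 2.25, 2.60, 1.98, 1.74 and 1.49 in that order, and none passed. Svil (2.28 and 1.80 above untreated) and Luc7l (1.11 and 0.98) were also among the 9, with differences between both drugs and gemcitabine of 0.47 and 0.13. Among the 4 that fell, Pla2g4e differed from untreated by -0.996 with both drugs and by -0.084 with gemcitabine. Npy5r, Slc6a20a and Cdh9 also fell, and with gemcitabine they differed from untreated by -1.13, -2.04 and -1.61 in that order. The 2 untreated arrays were far apart for Slc6a20a (4.79 and 7.04) and Cdh9 (5.37 and 7.32), and closer for Npy5r (4.87 and 5.14). Entpd2, Pald1, Mybpc1, Svil, Luc7l, Pla2g4e, Npy5r, Slc6a20a and Cdh9 were picked after their values were seen.

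Most genes called when 1 array was left out depended on which array it was. Without gemcitabine array 3, 32 genes passed, 8 higher and 24 lower with both drugs, and in 23 of the 24 lower genes gemcitabine array 3 had been below gemcitabine arrays 1 and 2. Among the 32 were Nkx1-2 (-3.15), Plxdc1 (-2.54), Septin8 (2.53), Fgl2 (1.71), Hes1 (2.60) and Alas2 (1.06), and also Etv1, a transcription factor of granule neurons, at 3.29. Without array 2 of both drugs, 15 genes passed, 13 higher and 2 lower, among them Gli1 (3.22), Pdzrn3 (2.54) and Mybpc1 (2.10). The sets shared 3 genes, 9.38% of the 32 and 20% of the 15. Leaving out any of the other 4 arrays gave 0.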

How the data were processed

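RNA was extracted with Trizol, amplified by NuGEN Ovation Pico WTA V2 and hybridised to mouse Affymetrix HT MG-430 PM arrays, per the labels' protocols. The deposited log2 values, made by the authors with RMA (version not given) and Partek 6.6 per the submitters' processing notes, were used unchanged. Together the mmm arrays span -0.41 to 16.11, wider than the other code. Neurosphere array 7 of code mmm is an exception, with a span of 2.64 to 13.73 like that of the other code. The step behind these spans is not given in the sources used here. Of 45141 probe sets, 28898 had 1 gene symbol and 551 several, and 15692 had none; the brightest per gene gave 17097 genes. Some listed genes were not analysed here, and figures given for lists cover measured genes.

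All 26 arrays were fitted in limma 3.58.1 (R 4.3.3) with 9 means (a group within a title code has its own), moderated variances, and p values adjusted over all genes by Benjamini-Hochberg with a threshold of 0.05. SE is the moderated standard error. SEs and intervals pool the spread within all 9 groups, so they can be wider or narrower than the spread of the 6 arrays quoted. The mmm neurosphere group, whose arrays have unlike spans, is among the groups pooled. The pipeline was tested on simulated arrays. The comparison, its members and the 33 gene lists (584 of 645 genes measured) were chosen with earlier results of these data known. Beside the 24 genes described above, up to 3 genes per list with the largest difference and a group mean of at least 6, the drug genes and the model genes were named; others are marked where picked after their values were seen, except members quoted as markers of a list. The alternatives covered arrays in the fit, probe sets, dim genes, normalization, variance model, array weights and left-out arrays. The number of arrays limits precision. Figures used Python 3.11.15 and matplotlib 3.10.9.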

Additional observations from a re-analysis of the deposited data

How the results depend on the processing

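For both drugs against gemcitabine, the count of 0 genes was also 0 with the 14 mmm arrays, the 10 mmm tumors or the 6 compared arrays alone, with the mean of probe sets, quantile normalization, centred and scaled arrays, a trended robust variance, and genes averaging at least 6, and, as alternatives chosen after seeing the data, with a brain-cell covariate and over all probe sets; the lowest adjusted p ran from 0.0630 to 0.969. Array weights gave 246 genes (112 higher, 134 lower), with weights of 0.781, 1.51 and 1.32 for the arrays with both drugs and 5.07, 0.916 and 0.276 for the gemcitabine arrays; all 32 genes called without gemcitabine array 3 and 10 of the 15 called without array 2 of both drugs were among them. Leaving out 1 array gave 0 to 32 genes. For the difference between the pemetrexed differences, array weights gave 675 genes (319 higher, 356 lower), and leaving out 1 array gave 0 to 32. The cause was not tested. The comparisons with untreated tumors were fitted in the main setting only. Single genes and list medians were followed under the mean of probe sets, quantile normalization, centred and scaled arrays, the brain-cell covariate and left-out arrays. Across these, none of the 24 genes farthest apart changed sign. At least 15 moved by more than their SE in at least 1, a count that leaves out settings where the gene passed. The sign changed in at least 1 of these alternatives for 23 of 33 list medians and 37 of 111 other named genes. The median of all genes moved by less than 0.1 under each scaling, to between -0.083 and -0.011. No paired analysis was possible because the labels give no replicate numbers.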

Other observations

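Some genes of the fixed lists stood apart on single arrays. Col3a1, a fibrillar collagen, was at 13.77 on array 1 with both drugs, against 11.08 and 10.41 on the other arrays with both drugs and 11.25, 10.82 and 10.02 on the gemcitabine arrays. Olig2, a factor of oligodendrocyte progenitors and neural precursors, was at 8.43, 10.19 and 8.87 with both drugs and at 11.36, 11.35 and 8.85 with gemcitabine, so that gemcitabine array 3, which had the highest mean of the oligodendrocyte list, was the lowest gemcitabine array for this gene. Untreated tumors had Olig2 at 11.40 and 11.32 and pemetrexed-treated tumors at 10.61 and 10.85. The difference between both drugs and gemcitabine was -1.36 (SE 1.20) and did not pass.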
